A study of Mus musculus with 444 samples.

Results

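The G2 and mitosis genes are 42 genes whose products carry a cell from the end of DNA replication through division. They were matched by gene symbol to the Entrez identifiers of the count files, and all 42 were found among 27179 identifiers. A cell that enters G2 makes cyclins A and B, which activate the kinase CDK1, and then builds the kinetochores, spindle and cytokinetic ring that separate its chromosomes. Most of these transcripts are low in resting and G1 cells, rise in G2 and are lost after division, so they are read together as a sign of cycling cells. In the mammary gland of the mouse, the ducts elongate by proliferation during puberty and the adult virgin gland cycles less.

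The measurements were read-pair counts per gene in single cells of the mammary epithelium of female FVB/NJ mice, captured on the Fluidigm C1, with 221 cells labelled puberty (5 weeks) and 223 labelled adult (10 weeks). No transgene or treatment is named for either stage. Glands of 6 pubertal or 4 adult mice were pooled for each sort, which removed cells bearing Ter119, CD31 or CD45. The paper describes independent experiments for these cells, so a stage may hold cells of several sorts. No label ties a cell to a mouse, an experiment or a capture run, so each stage counted as 1 sample. For that reason no test was made between the stages, and all intervals below are exact 95% intervals that cover counting error only. Cells were kept with at least 100000 read pairs and 1500 genes, which left 171 pubertal and 152 adult cells with 101473 to 1354392 and 100889 to 1049772 read pairs, and each was thinned to 100000 read pairs, so that 1 read equals 10 CPM, the unit of reads scaled to a common total that is used below. A gene was called detected in a cell at 1 read or more. Epcam, the epithelial adhesion molecule, was detected in 95.1% or more of the cells of either stage. This held for cells with 10 or more of the G2 and mitosis genes detected and for cells with fewer.

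The adult libraries were not uniform along the cell numbers in their titles, and this touches every result below. Rn7sk, a small nuclear RNA, was detected in 52 of 52 adult cells numbered 48 to 116 and 54 of 55 numbered 117 to 188, but in only 4 of the 45 adult cells numbered 1 to 47 or 189 to 223. A second boundary lay at cell 117. Detection in the adult cells changed along a run of at least 15 consecutive retained cells, past a fixed score, for 1135 of 6943 genes. These genes lay outside all gene lists used here. For each gene the run that differed most was taken, and the count expected by chance was not computed. The runs started most often at cell 117, for 213 genes. They ended most often at cell 185 (106 genes), then at 188 (98), the end used here. Mrvi1, for example, was detected in 38 of the 55 adult cells 117 to 188, in 0 of the 52 cells 48 to 116, where a floor of 3 cells in place of 0 would be 5.77%, and in 2 of the remaining 45. Zfp619 was found in 26, 0 and 1 cells of these sets. In puberty 160 of 7170 genes showed such a run, which started most often at cell 146 and ended most often at cell 179. The adult cells 117 to 188 also had more genes than the other adult cells, with a median of 4342 before thinning against 2959. What sets the run apart is not named in the labels, its part in the results was not tested, and each main result is given with and without these 55 cells.

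Most of the members with a promoter window share a feature that their choice by function did not use: the letters of their promoters. Genes of late G2 are known to be held down by the DREAM complex in resting cells and switched on by B-MYB and FOXM1 through a cell cycle genes homology region (CHR), most often TTTGAA, often near CCAAT boxes bound by NF-Y. RefSeq windows (GRCm38.p6) of 250 bases before and 50 bases after the transcript start were at hand for 34 of the 42 members, as 36 windows. TTTGAA on either strand was found for 25 of these 34 members (73.5%) and in 17.9% of all 32851 windows. CCAAT on either strand was found for 26 of 34 (76.5%), against 37.4% of all windows. Both CCAAT and TTTGAA or its variant TTCGAA were present for 22 of 34 members (64.7%) and in 7.52% of all windows. Within the members' windows 1 pair of such matches overlapped.

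The windows below run from 250 bases before to 30 bases after the start, 5′ to 3′ on the gene's strand, with matches to TTTGAA or TTCGAA and to CCAAT in capitals on either strand. The first 4 are the members with the largest part in the difference between puberty and all adult cells that have a window. Top2a is shown because it was detected in all 23 adult cells 117 to 188 with 10 or more members, and Ccnb2 as a cyclin gene. A match is a description of the letters and not a bound site.
Cdk1, chr10:69352883-69353162, minus strand: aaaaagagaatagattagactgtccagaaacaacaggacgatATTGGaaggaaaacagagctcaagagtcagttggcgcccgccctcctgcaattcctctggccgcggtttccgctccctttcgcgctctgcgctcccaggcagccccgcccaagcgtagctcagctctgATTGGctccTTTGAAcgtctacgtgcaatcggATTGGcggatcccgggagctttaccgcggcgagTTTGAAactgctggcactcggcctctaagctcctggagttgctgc
Cenpf, chr1:189688057-189688336, minus strand: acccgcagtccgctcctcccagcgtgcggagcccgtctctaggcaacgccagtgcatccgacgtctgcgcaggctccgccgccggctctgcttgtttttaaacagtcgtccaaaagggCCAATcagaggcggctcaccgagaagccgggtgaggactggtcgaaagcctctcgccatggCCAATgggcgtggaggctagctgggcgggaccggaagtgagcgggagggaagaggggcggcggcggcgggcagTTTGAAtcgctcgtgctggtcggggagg
Birc5, chr11:117848987-117849266, plus strand: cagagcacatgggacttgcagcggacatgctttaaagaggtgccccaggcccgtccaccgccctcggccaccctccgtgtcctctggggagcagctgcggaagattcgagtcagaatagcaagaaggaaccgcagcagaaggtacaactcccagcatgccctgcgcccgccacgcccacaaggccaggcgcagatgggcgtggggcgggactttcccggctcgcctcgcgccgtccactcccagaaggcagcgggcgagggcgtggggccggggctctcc
Cks1b, chr3:89418262-89418541, minus strand: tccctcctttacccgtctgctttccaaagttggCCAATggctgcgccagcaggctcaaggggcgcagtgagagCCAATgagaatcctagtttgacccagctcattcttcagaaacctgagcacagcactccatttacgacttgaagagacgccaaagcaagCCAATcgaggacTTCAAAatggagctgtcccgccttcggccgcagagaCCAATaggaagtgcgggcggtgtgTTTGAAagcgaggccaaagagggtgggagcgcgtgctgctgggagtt
Top2a, chr11:99024160-99024439, minus strand: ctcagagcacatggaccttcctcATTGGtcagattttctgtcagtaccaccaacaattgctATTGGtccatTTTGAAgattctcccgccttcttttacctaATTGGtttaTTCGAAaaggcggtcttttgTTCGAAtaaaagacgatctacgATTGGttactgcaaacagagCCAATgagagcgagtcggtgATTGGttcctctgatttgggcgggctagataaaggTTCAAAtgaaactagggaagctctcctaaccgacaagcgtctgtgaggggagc
Ccnb2, chr9:70421525-70421804, minus strand: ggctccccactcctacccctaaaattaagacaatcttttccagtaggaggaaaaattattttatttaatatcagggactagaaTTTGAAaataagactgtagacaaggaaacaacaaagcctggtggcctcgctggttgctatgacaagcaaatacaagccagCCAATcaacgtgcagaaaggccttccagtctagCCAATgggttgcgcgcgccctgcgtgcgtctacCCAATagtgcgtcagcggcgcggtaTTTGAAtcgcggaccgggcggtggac
The Cdk1 window holds 2 CHR and 3 CCAAT matches, that of Top2a 4 and 6, and that of Birc5 neither.

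Pubertal cells had more of the members per cell than adult cells, and the gap was wider without the adult cells 117 to 188. The number of members detected ranged from 0 to 36 with a median of 4 and a mean of 8.22 in the 171 pubertal cells, and from 0 to 31 with a median of 3 and a mean of 5.66 in the 152 adult cells. The 3 adult sets differed more among themselves than the stages did, since the mean was 2.06 in cells 48 to 116 (range 0 to 15), 10.0 in cells 117 to 188 (0 to 31) and 4.51 in the remaining 45 (0 to 29). Without the cells 117 to 188 the adult mean was 3.20. All ranges overlapped. The mean of log2(CPM + 1) over the members followed the same order, at 1.30 in puberty, 0.796 in all adult cells, 1.38 in the adult cells 117 to 188 and 0.462 in the other 97. In the pubertal cells 146 to 179 the mean number of members was 6.55, and in the other pubertal cells 8.56. Before thinning, the mean number of members was 10.2 in puberty and 7.37 in adult cells, or 4.36 without the cells 117 to 188.

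**Figure D1:**
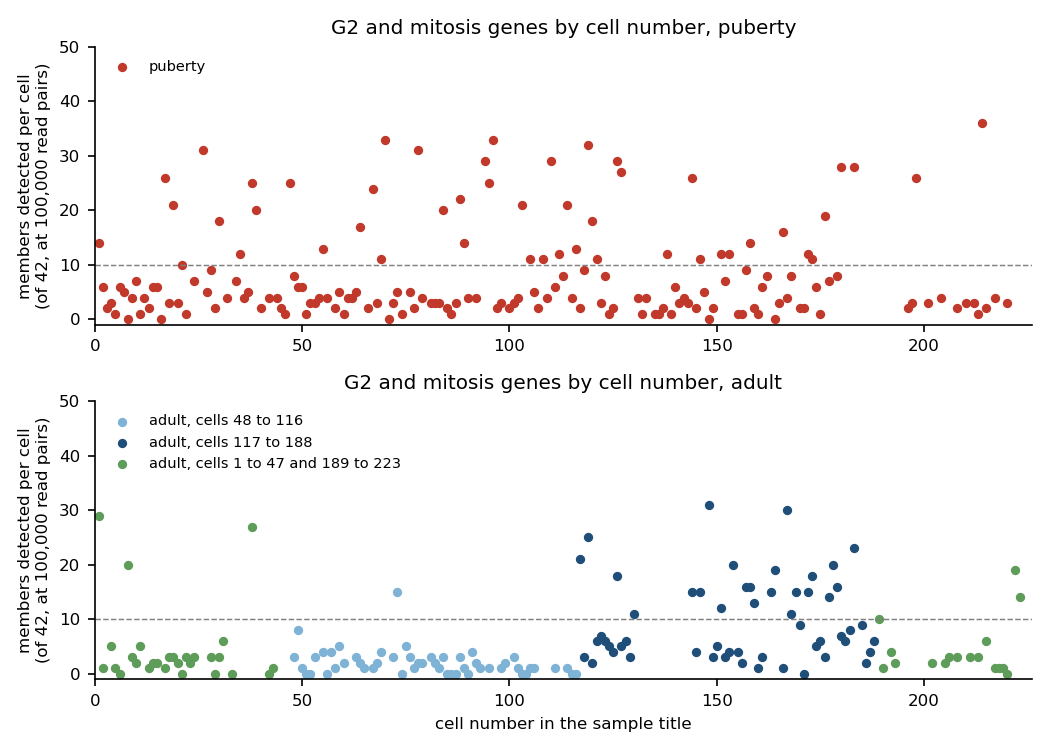
Number of the 42 G2 and mitosis genes detected in each retained cell (vertical axis, at 100000 read pairs) against the cell number in the sample title (horizontal axis), for puberty (top) and adult (bottom, coloured by set of cell numbers). The dashed line marks 10 members. High pubertal cells are spread along the numbers, whereas 23 of the 30 adult cells at or above the line lie between 117 and 188 and a single one between 48 and 116.

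A minority of cells held most of the members' reads in puberty and in all adult cells together. At least 10 members were detected in 48 of 171 pubertal cells (28.1%, interval 21.5 to 35.4) and 30 of 152 adult cells (19.7%, 13.7 to 27.0). The intervals of the 2 stages overlapped. Of the 30 adult cells, 23 were among the 55 numbered 117 to 188 (41.8%, 28.7 to 55.9), 1 was among the 52 numbered 48 to 116 and 6 among the remaining 45. Without the cells 117 to 188 the adult share was 7 of 97 cells (7.22%, 2.95 to 14.3), whose interval lay below the pubertal one. At 20 members or more the counts were 25 pubertal cells (14.6%), 7 of the adult cells 117 to 188 (12.7%) and 3 of the other 97 (3.09%), while none of the 29 pubertal cells 146 to 179 reached it. Few cells lay near the threshold: 8 or 9 members were found in 9 pubertal and 4 adult cells, and 10 or 11 members in 7 and 3.

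The typical number of reads per member was higher in the pubertal cells than in the adult cells 117 to 188, with overlapping ranges. The 48 pubertal cells with 10 or more members had 65 to 1974 member reads of 100000, with a median of 715.5, whereas the 23 adult cells 117 to 188 had 37 to 1887 with a median of 125. The median number of reads per detected member in these cells was 16.5 in puberty and 4 in the adult cells 117 to 188, with 13 in the 7 other adult cells. At least 500 member reads were found in 32 of 171 pubertal cells (18.7%), 3 of the 55 adult cells 117 to 188 (5.45%) and 5 of the other 97 (5.15%). These 5 were all among the 45 adult cells 1 to 47 and 189 to 223 (11.1%), and 0 of the 52 cells 48 to 116 reached 500.

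Summed over cells, the members took 41237 reads in puberty (2412 CPM) and 16705 in adult cells (1099 CPM), a log2 ratio of 1.13 (1.11 to 1.16), where the ratio was taken of CPM + 1. It was 0.65 (0.61 to 0.68) against the adult cells 117 to 188 and 1.51 (1.47 to 1.54) against the other 97. Cells with 10 or more members, which were chosen by the members themselves, supplied 82.9% of the pubertal and 70.5% of the adult member reads. Without the cells 117 to 188 the adult share was 59.0%, and in the cells 48 to 116 alone it was 9.08%. Against all adult cells, the ratio was 0.86 within the cells with 10 or more members and 0.50 within cells under 10 members. Pubertal cells with 10 or more members stood at 7122 CPM. Such cells of the adult run 117 to 188 were lower, at 3010 CPM, whereas the 7 from outside that run lay close to puberty, at 6930 CPM. Under 10 members, the levels were 573 CPM (puberty), 486 CPM (run 117 to 188) and 375 CPM (outside it).

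All 42 members met the minimum of 20 reads and 5 cells over both stages, and 40 had a log2 ratio above 0, against 54.9% of the 12539 genes that met it. A ratio of 1 or more was found for 22 members, against 22.6% of all genes, and of -1 or less for 0 members, against 15.9%. The median ratio was 1.06 over the members and 0.13 over all genes. Against the 97 adult cells without those numbered 117 to 188, 41 members were above 0 (57.4% of all genes) and 28 at 1 or more (28.6% of all genes), with a median of 1.64, where all genes had 0.24. Against the cells 117 to 188 alone, 36 were above 0 (60.8% of all genes) and 18 at 1 or more (35.3%). Against the cells 48 to 116, all 42 were above 0 (65.3%) and 40 at 1 or more (41.7%). For the remaining 45 cells the counts were 31 (60.9%) and 20 (35.4%), with a lowest ratio of -2.07. Ratios of single members against the other 97, given below, pool these 2 sets. The share of cells with a read was higher in puberty for 34 members against all adult cells (55.8% of all genes). For the other 97 adult cells the count was 41 (69.6%). It was higher for 16 members against the cells 117 to 188 (43.2%), a minority of the members as of all genes. Against the cells 48 to 116 it was higher for all 42 (67.8% of all genes) and against the remaining 45 for 37 (70.0%). The exact intervals of the shares lay apart, with puberty higher, for 8 members against all adult cells (7.63% of all genes) and for 19 against the other 97 (9.62%).

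**Figure D2:**
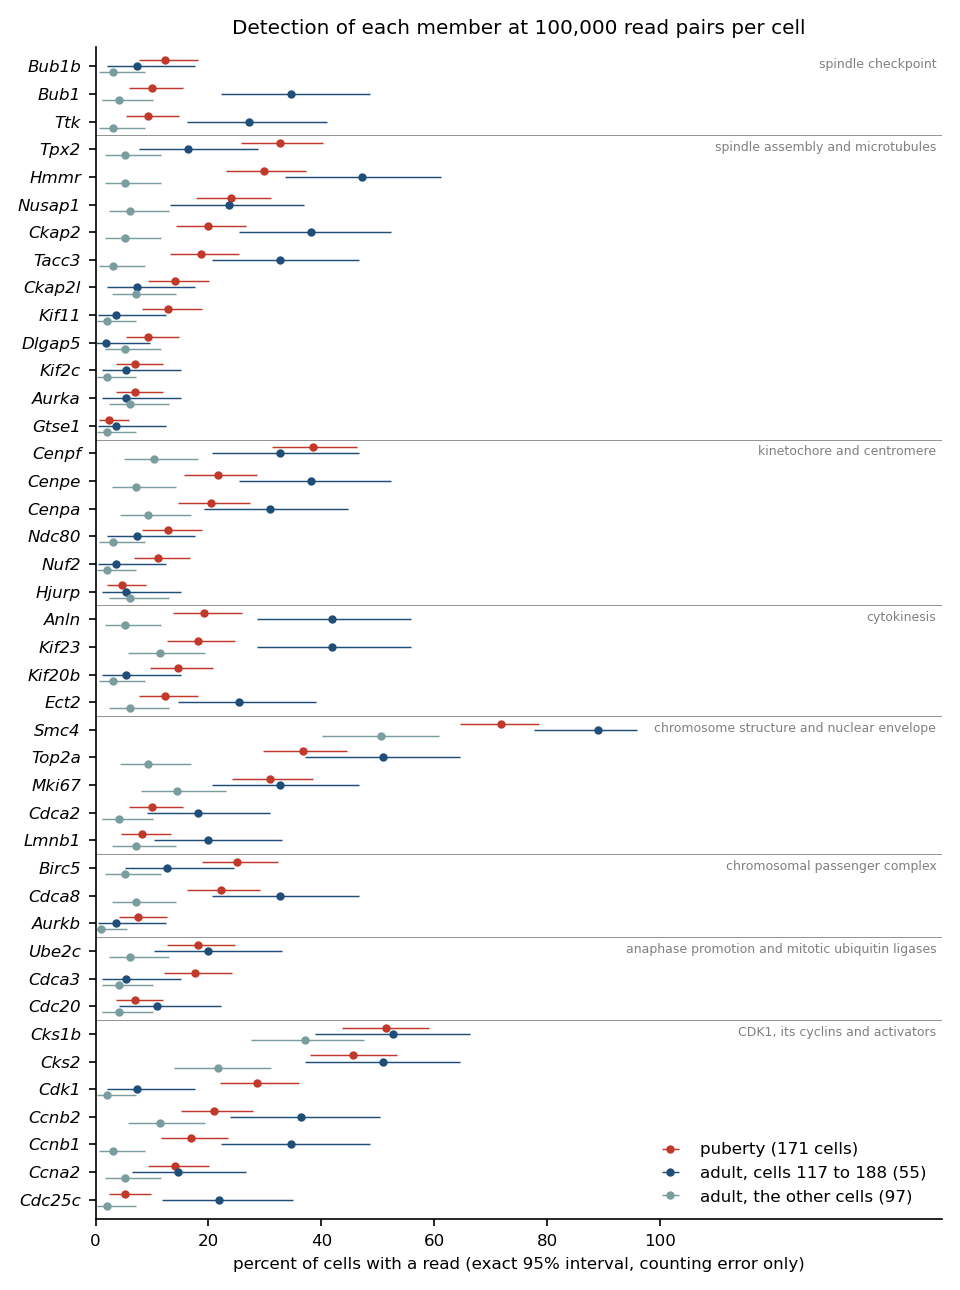
Percent of cells with at least 1 read (horizontal axis) for each of the 42 members (vertical axis, grouped by role), in pubertal cells, in adult cells 117 to 188 and in the other adult cells. Bars are exact 95% intervals for counting error. Cdk1 and Tpx2 are higher in puberty than in either adult set, whereas Anln, Kif23, Bub1 and Ttk are highest in the adult cells 117 to 188.

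The difference between the stages in mean log2(CPM + 1) was 0.51 per member and was spread over many of them, with 10 members needed to reach 50% of it (first 10, 52.7%). The 5 members with the largest parts, Cdk1 (7.89%), Tpx2 (7.17%), Cenpf (6.30%), Birc5 (6.07%) and Cks1b (5.51%), together made 32.9%, where an equal part would be 2.38% each. The difference was positive for 38 members, against 59.0% of all genes, and negative for Cdc25c, Bub1, Ect2 and Hjurp. Against the 97 adult cells without those numbered 117 to 188, the mean difference was 0.84, 41 of 42 members had a positive difference (70.6% of all genes) and the order changed: Top2a came first (5.95%), then Smc4 (5.40%), Cdk1 (5.07%), Cenpf (4.96%) and Tpx2 (4.96%), which together made 26.3%.

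Cdk1, the kinase that drives entry into mitosis, had the largest part in the difference from all adult cells and the third largest without those numbered 117 to 188. It was detected in 49 of 171 pubertal cells (28.7%), in 0 of the 52 adult cells 48 to 116, in 4 of the 55 adult cells 117 to 188 and in 2 of the remaining 45 adult cells. Per cell it ranged from 0 to 222 reads with a median of 0 in puberty, where 23 cells had 10 reads or more, and from 0 to 101 reads in adult cells, where 4 had. It reached 98.0 CPM in pubertal and 14.7 CPM in adult cells (log2 ratio 2.65, 2.46 to 2.85), and the ratio was 1.93 against the adult cells 117 to 188 and 3.31 against the other 97.

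Tpx2, which activates Aurora A and nucleates spindle microtubules, came next. It was detected in 56 pubertal cells (32.7%), where it ranged from 0 to 133 reads, and in 1, 9 and 4 cells of the adult sets 48 to 116, 117 to 188 and the rest, with highest values of 1, 27 and 74 reads. Its log2 ratio was 2.07 (1.88 to 2.26) against all adult cells and 2.13 against the cells 117 to 188. Birc5, survivin of the chromosomal passenger complex, was detected in 43 pubertal cells (25.1%) with up to 96 reads, in 0 of the 52 adult cells 48 to 116 and in 7 and 5 cells of the other 2 adult sets, with up to 61 and 23 reads. Its log2 ratio was 2.45 (2.26 to 2.65).

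Cenpf, a large protein of the outer kinetochore, was detected in 66 pubertal cells (38.6%) with up to 154 reads, and in 5, 18 and 5 cells of the 3 adult sets. Its highest cell overall was an adult one, numbered in the range 48 to 116, with 379 reads or 42.5% of all adult Cenpf reads. The log2 ratio was 0.82 (0.71 to 0.94), and 1.47 once each stage's top cell was dropped. Cks1b, a small subunit of the CDK complexes, was common in either stage, with a read in 88 pubertal cells (51.5%) and in 11, 29 and 25 cells of the adult sets. A single adult cell had 514 reads, 31.7% of the adult total, and the log2 ratio of 0.61 (0.52 to 0.70) became 1.06 without the highest cells. It was at 10 reads or more in 61 pubertal and 23 adult cells.

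Among CDK1's cyclins and activators, 3 of 7 members, Cdk1 included, had a log2 ratio of 1 or more, against 22.6% of all genes. The summed reads of the 7 had a ratio of 0.98 (0.92 to 1.03), or 1.34 against the other 97 adult cells. Ccnb1, cyclin B1, the main mitotic partner of CDK1, was detected in 29 of 171 pubertal cells (17.0%), 19 of the 55 adult cells 117 to 188 and 3 of the other 97 adult cells. It reached 41.0 CPM in pubertal and 18.4 CPM in adult cells (log2 ratio 1.12, 0.92 to 1.31), with a ratio of 1.58 against the other 97 adult cells. Reads of Ccnb2, a further B-type cyclin, were found in 36 of 171 pubertal cells (21.1%), in 20 of the 55 adult cells 117 to 188 and in 11 of the other 97 adult cells. It reached 77.3 CPM in pubertal and 35.7 CPM in adult cells (log2 ratio 1.09, 0.95 to 1.23), with a ratio of 1.42 against the other 97 adult cells. Ccna2, cyclin A2, which acts in S phase and G2, was detected in 24 of 171 pubertal cells (14.0%), 8 of the 55 adult cells 117 to 188 and 5 of the other 97 adult cells. It reached 14.4 CPM in pubertal and 10.1 CPM in adult cells (log2 ratio 0.47, 0.19 to 0.74), with a ratio of 0.77 against the other 97 adult cells. Reads of Cks2, the paralogue of Cks1b, were found in 78 of 171 pubertal cells (45.6%), in 28 of the 55 adult cells 117 to 188 and in 21 of the other 97 adult cells. It reached 37.7 CPM in pubertal and 25.7 CPM in adult cells (log2 ratio 0.54, 0.36 to 0.72), with a ratio of 1.08 against the other 97 adult cells. Cdc25c, a phosphatase that activates CDK1, was detected in 9 of 171 pubertal cells (5.26%), 12 of the 55 adult cells 117 to 188 and 2 of the other 97 adult cells. It reached 42.9 CPM in pubertal and 29.0 CPM in adult cells (log2 ratio 0.55, 0.38 to 0.72), with a ratio of 4.96 against the other 97 adult cells. Ccnb1 and Ccnb2 were thus found in a larger share of the adult cells 117 to 188 than of pubertal cells, the reverse of Cdk1.

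The chromosomal passenger complex had the largest summed ratio of the 8 roles, 1.99 (1.87 to 2.12), or 2.45 against the other 97 adult cells. Each of its 3 members was at 1 or more, against 22.6% of all genes. Aurkb, the kinase of the complex, was detected in 13 of 171 pubertal cells (7.60%), 2 of the 55 adult cells 117 to 188 and 1 of the other 97 adult cells. It reached 15.3 CPM in pubertal and 1.38 CPM in adult cells (log2 ratio 2.77, 2.35 to 3.16), with a ratio of 3.75 against the other 97 adult cells. Reads of Cdca8, borealin, were found in 38 of 171 pubertal cells (22.2%), in 18 of the 55 adult cells 117 to 188 and in 7 of the other 97 adult cells. It reached 54.0 CPM in pubertal and 21.8 CPM in adult cells (log2 ratio 1.27, 1.10 to 1.45), with a ratio of 1.28 against the other 97 adult cells. Aurkb reads were few in adult cells, 21 in all, and 52.4% of them lay in 1 cell. In puberty 1 cell held 40.2% of the Aurkb reads, and the ratio was 2.61 once each stage's top cell was dropped.

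The 3 members that promote anaphase or mitotic protein turnover summed to a ratio of 1.28 (1.16 to 1.41), or 1.30 against the other 97 adult cells. Ube2c, the ubiquitin-conjugating enzyme of the anaphase-promoting complex, was detected in 31 of 171 pubertal cells (18.1%), 11 of the 55 adult cells 117 to 188 and 6 of the other 97 adult cells. It reached 80.3 CPM in pubertal and 25.3 CPM in adult cells (log2 ratio 1.63, 1.47 to 1.79), with a ratio of 2.21 against the other 97 adult cells. Reads of Cdc20, an activator of that complex, were found in 12 of 171 pubertal cells (7.02%), in 6 of the 55 adult cells 117 to 188 and in 4 of the other 97 adult cells. It reached 7.84 CPM in pubertal and 5.13 CPM in adult cells (log2 ratio 0.53, 0.17 to 0.88), with a ratio of 0.60 against the other 97 adult cells. Cdca3, a trigger of mitotic entry, was detected in 30 of 171 pubertal cells (17.5%), 3 of the 55 adult cells 117 to 188 and 4 of the other 97 adult cells. It reached 31.1 CPM in pubertal and 18.0 CPM in adult cells (log2 ratio 0.76, 0.55 to 0.96), with a ratio of 0.22 against the other 97 adult cells. Of the adult Cdca3 reads, 79.9% lay in 1 cell, and the ratio was 2.53 once each stage's top cell was dropped.

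Chromosome structure and the nuclear envelope gave 4 of 5 members at 1 or more (22.6% of all genes). Their summed ratio was 1.20 (1.15 to 1.25), or 1.63 against the other 97 adult cells. Top2a, topoisomerase II alpha, which untangles sister chromatids, was detected in 63 of 171 pubertal cells (36.8%), 28 of the 55 adult cells 117 to 188 and 9 of the other 97 adult cells. It reached 265 CPM in pubertal and 63.3 CPM in adult cells (log2 ratio 2.05, 1.95 to 2.15), with a ratio of 3.93 against the other 97 adult cells. Reads of Mki67, the Ki-67 antigen, which coats mitotic chromosomes and is widely used as a proliferation marker, were found in 53 of 171 pubertal cells (31.0%), in 18 of the 55 adult cells 117 to 188 and in 14 of the other 97 adult cells. It reached 118 CPM in pubertal and 34.5 CPM in adult cells (log2 ratio 1.74, 1.60 to 1.88), with a ratio of 2.31 against the other 97 adult cells. Smc4, a core subunit of condensin, was detected in 123 of 171 pubertal cells (71.9%), 49 of the 55 adult cells 117 to 188 and 49 of the other 97 adult cells. It reached 227 CPM in pubertal and 172 CPM in adult cells (log2 ratio 0.39, 0.32 to 0.47), with a ratio of 0.47 against the other 97 adult cells. Reads of Cdca2, which brings a phosphatase to chromatin at mitotic exit, were found in 17 of 171 pubertal cells (9.94%), in 10 of the 55 adult cells 117 to 188 and in 4 of the other 97 adult cells. It reached 20.3 CPM in pubertal and 4.93 CPM in adult cells (log2 ratio 1.84, 1.53 to 2.16), with a ratio of 3.32 against the other 97 adult cells. Lmnb1, lamin B1, was detected in 14 of 171 pubertal cells (8.19%), 11 of the 55 adult cells 117 to 188 and 7 of the other 97 adult cells. It reached 8.36 CPM in pubertal and 1.97 CPM in adult cells (log2 ratio 1.65, 1.23 to 2.06), with a ratio of 2.36 against the other 97 adult cells. Smc4 was the most widely detected member in puberty, in the adult cells 117 to 188 and in the other 97, where it was found in 50.5% of cells.

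Of the 6 kinetochore and centromere members, 2 were at 1 or more, Cenpa and Ndc80, where 22.6% of all genes were. The sum had a ratio of 0.85 (0.79 to 0.92), or 0.81 against the other 97 adult cells. Cenpa, the centromeric histone H3 variant, was detected in 35 of 171 pubertal cells (20.5%), 17 of the 55 adult cells 117 to 188 and 9 of the other 97 adult cells. It reached 71.8 CPM in pubertal and 14.9 CPM in adult cells (log2 ratio 2.20, 2.00 to 2.40), with a ratio of 2.49 against the other 97 adult cells. Reads of Ndc80, a subunit of the complex that binds microtubules, were found in 22 of 171 pubertal cells (12.9%), in 4 of the 55 adult cells 117 to 188 and in 3 of the other 97 adult cells. It reached 22.4 CPM in pubertal and 2.89 CPM in adult cells (log2 ratio 2.59, 2.23 to 2.94), with a ratio of 2.59 against the other 97 adult cells. Nuf2, its partner in that complex, was detected in 19 of 171 pubertal cells (11.1%), 2 of the 55 adult cells 117 to 188 and 2 of the other 97 adult cells. It reached 27.9 CPM in pubertal and 18.3 CPM in adult cells (log2 ratio 0.58, 0.38 to 0.79), with a ratio of 0.39 against the other 97 adult cells. Of the adult Nuf2 reads, 73.0% lay in 1 cell, and the ratio was 1.88 once each stage's top cell was dropped. Reads of Cenpe, a kinetochore kinesin, were found in 37 of 171 pubertal cells (21.6%), in 21 of the 55 adult cells 117 to 188 and in 7 of the other 97 adult cells. It reached 94.3 CPM in pubertal and 76.4 CPM in adult cells (log2 ratio 0.30, 0.19 to 0.41), with a ratio of 0.39 against the other 97 adult cells. Hjurp, the chaperone that loads CENP-A, was detected in 8 of 171 pubertal cells (4.68%), 3 of the 55 adult cells 117 to 188 and 6 of the other 97 adult cells. It reached 6.14 CPM in pubertal and 9.41 CPM in adult cells (log2 ratio -0.54, -0.87 to -0.21), with a ratio of -1.08 against the other 97 adult cells. Of the adult Hjurp reads, 87.4% lay in 1 cell, and the ratio was 0.99 once each stage's top cell was dropped. Hjurp was the member with the lowest ratio, and most of its adult reads lay in 1 cell.

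The summed ratio of the spindle checkpoint was 0.72 (0.62 to 0.83), the smallest of the 8 roles against all adult cells, but 1.55 (1.40 to 1.71) against the other 97, where kinetochore and centromere genes were smallest, and no read of its 3 members was found in the 52 adult cells 48 to 116. Bub1, a checkpoint kinase, was detected in 17 of 171 pubertal cells (9.94%), 19 of the 55 adult cells 117 to 188 and 4 of the other 97 adult cells. It reached 51.6 CPM in pubertal and 26.2 CPM in adult cells (log2 ratio 0.95, 0.79 to 1.12), with a ratio of 1.26 against the other 97 adult cells. Reads of Bub1b, BUBR1, were found in 21 of 171 pubertal cells (12.3%), in 4 of the 55 adult cells 117 to 188 and in 3 of the other 97 adult cells. It reached 34.9 CPM in pubertal and 30.5 CPM in adult cells (log2 ratio 0.19, 0.02 to 0.36), with a ratio of 3.50 against the other 97 adult cells. Of the adult Bub1b reads, 69.5% lay in 1 cell, and the ratio was 1.43 once each stage's top cell was dropped. Ttk, the MPS1 kinase, was detected in 16 of 171 pubertal cells (9.36%), 15 of the 55 adult cells 117 to 188 and 3 of the other 97 adult cells. It reached 35.7 CPM in pubertal and 16.9 CPM in adult cells (log2 ratio 1.04, 0.83 to 1.24), with a ratio of 0.96 against the other 97 adult cells. Of the adult Ttk reads, 65.4% lay in 1 cell, and the ratio was 2.08 once each stage's top cell was dropped. Bub1 and Ttk were detected in a larger share of adult than of pubertal cells, and this order was reversed without the adult cells 117 to 188.

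Spindle assembly, the largest role with 11 members, had 7 at 1 or more (22.6% of all genes). Its summed ratio was 1.41 (1.34 to 1.47), or 2.06 against the other 97 adult cells. Hmmr, a spindle and hyaluronan-binding protein, was detected in 51 of 171 pubertal cells (29.8%), 26 of the 55 adult cells 117 to 188 and 5 of the other 97 adult cells. It reached 86.6 CPM in pubertal and 36.4 CPM in adult cells (log2 ratio 1.23, 1.09 to 1.37), with a ratio of 2.23 against the other 97 adult cells. Reads of Tacc3, which stabilizes the fibres of the spindle, were found in 32 of 171 pubertal cells (18.7%), in 18 of the 55 adult cells 117 to 188 and in 3 of the other 97 adult cells. It reached 72.0 CPM in pubertal and 20.7 CPM in adult cells (log2 ratio 1.75, 1.58 to 1.93), with a ratio of 4.27 against the other 97 adult cells. Of the adult Tacc3 reads, 62.9% lay in 1 cell, and the ratio was 2.69 once each stage's top cell was dropped. Nusap1, a microtubule-bundling protein, was detected in 41 of 171 pubertal cells (24.0%), 13 of the 55 adult cells 117 to 188 and 6 of the other 97 adult cells. It reached 37.4 CPM in pubertal and 9.41 CPM in adult cells (log2 ratio 1.88, 1.64 to 2.13), with a ratio of 2.30 against the other 97 adult cells. Reads of Ckap2, a spindle-associated protein, were found in 34 of 171 pubertal cells (19.9%), in 21 of the 55 adult cells 117 to 188 and in 5 of the other 97 adult cells. It reached 55.0 CPM in pubertal and 20.1 CPM in adult cells (log2 ratio 1.41, 1.22 to 1.59), with a ratio of 2.16 against the other 97 adult cells. Ckap2l, its relative, was detected in 24 of 171 pubertal cells (14.0%), 4 of the 55 adult cells 117 to 188 and 7 of the other 97 adult cells. It reached 31.8 CPM in pubertal and 23.6 CPM in adult cells (log2 ratio 0.41, 0.23 to 0.60), with a ratio of 1.70 against the other 97 adult cells. Of the adult Ckap2l reads, 71.0% lay in 1 cell, and the ratio was 1.86 once each stage's top cell was dropped.

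The spindle motors and kinases were each detected in 7.02% to 12.9% of pubertal cells. Kif11, the kinesin that pushes spindle poles apart, was detected in 22 of 171 pubertal cells (12.9%), 2 of the 55 adult cells 117 to 188 and 2 of the other 97 adult cells. It reached 20.4 CPM in pubertal and 9.74 CPM in adult cells (log2 ratio 0.99, 0.73 to 1.25), with a ratio of 0.49 against the other 97 adult cells. Of the adult Kif11 reads, 91.2% lay in 1 cell, and the ratio was 3.27 once each stage's top cell was dropped. Reads of Kif2c, a microtubule depolymerase, were found in 12 of 171 pubertal cells (7.02%), in 3 of the 55 adult cells 117 to 188 and in 2 of the other 97 adult cells. It reached 10.1 CPM in pubertal and 7.30 CPM in adult cells (log2 ratio 0.42, 0.11 to 0.74), with a ratio of 0.13 against the other 97 adult cells. A single cell of each stage held 71.2% of the adult and 64.7% of the pubertal Kif2c reads. The ratio was 0.56 once each stage's top cell was dropped. Aurka, the spindle pole kinase Aurora A, was detected in 12 of 171 pubertal cells (7.02%), 3 of the 55 adult cells 117 to 188 and 6 of the other 97 adult cells. It reached 25.6 CPM in pubertal and 13.8 CPM in adult cells (log2 ratio 0.85, 0.62 to 1.07), with a ratio of 1.30 against the other 97 adult cells. Of the adult Aurka reads, 53.3% lay in 1 cell, and the ratio was 1.49 once each stage's top cell was dropped. Reads of Dlgap5, a stabilizer of kinetochore fibres, were found in 16 of 171 pubertal cells (9.36%), in 1 of the 55 adult cells 117 to 188 and in 5 of the other 97 adult cells. It reached 13.1 CPM in pubertal and 1.91 CPM in adult cells (log2 ratio 2.28, 1.87 to 2.67), with a ratio of 1.86 against the other 97 adult cells. Gtse1, a partner of p53 and microtubules, was below 5% of the cells of either stage, with a read in 4 pubertal and 4 adult cells.

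Cytokinesis genes had a summed ratio of 0.90 (0.80 to 1.00), or 1.51 against the other 97 adult cells. Only 1 of 4 members, Anln, was at 1 or more, a share near the 22.6% of all genes. Anln, anillin, a scaffold of the contractile ring, was detected in 33 of 171 pubertal cells (19.3%), 23 of the 55 adult cells 117 to 188 and 5 of the other 97 adult cells. It reached 59.6 CPM in pubertal and 25.7 CPM in adult cells (log2 ratio 1.18, 1.02 to 1.35), with a ratio of 2.45 against the other 97 adult cells. Reads of Kif23, a motor of the central spindle, were found in 31 of 171 pubertal cells (18.1%), in 23 of the 55 adult cells 117 to 188 and in 11 of the other 97 adult cells. It reached 51.4 CPM in pubertal and 25.4 CPM in adult cells (log2 ratio 0.99, 0.82 to 1.16), with a ratio of 2.20 against the other 97 adult cells. Ect2, which activates RhoA at the cleavage furrow, was detected in 21 of 171 pubertal cells (12.3%), 14 of the 55 adult cells 117 to 188 and 6 of the other 97 adult cells. It reached 16.7 CPM in pubertal and 17.7 CPM in adult cells (log2 ratio -0.08, -0.31 to 0.15), with a ratio of 0.31 against the other 97 adult cells. Reads of Kif20b, a kinesin of late cytokinesis, were found in 25 of 171 pubertal cells (14.6%), in 3 of the 55 adult cells 117 to 188 and in 3 of the other 97 adult cells. It reached 25.8 CPM in pubertal and 13.2 CPM in adult cells (log2 ratio 0.92, 0.69 to 1.16), with a ratio of 0.38 against the other 97 adult cells. Anln and Kif23 were each found in 23 of the 55 adult cells 117 to 188, whereas Kif20b was found in 3.

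Among the cells with 10 or more members, some members had unlike shares in puberty and in the adult cells 117 to 188. These cells were chosen by the members, so their shares are a description. Cdk1 had a read in 36 of 48 such pubertal cells (75.0%) and in 3 of 23 such adult cells 117 to 188 (13.0%). Tpx2 was found in 79.2% and 34.8%, Mki67 in 77.1% and 39.1%, Birc5 in 68.8% and 26.1%, and Kif20b in 47.9% and 8.70%. For these 5 members the exact intervals lay apart. The share of all genes with intervals apart in these cells was not computed. Other members ran level or the other way: Top2a was found in 89.6% and 100.0%, Anln in 54.2% and 82.6%, Ttk in 25.0% and 60.9%, and Bub1 in 33.3% and 73.9%, the last with intervals apart. Over the 42 members 19 had the higher share in the adult cells 117 to 188 and 23 the lower, and of all genes that met the minimum 46.2% had the higher share there. The 7 other adult cells were too few to place, with Cdk1 in 2 and Mki67 in 7.

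**Figure D3:**
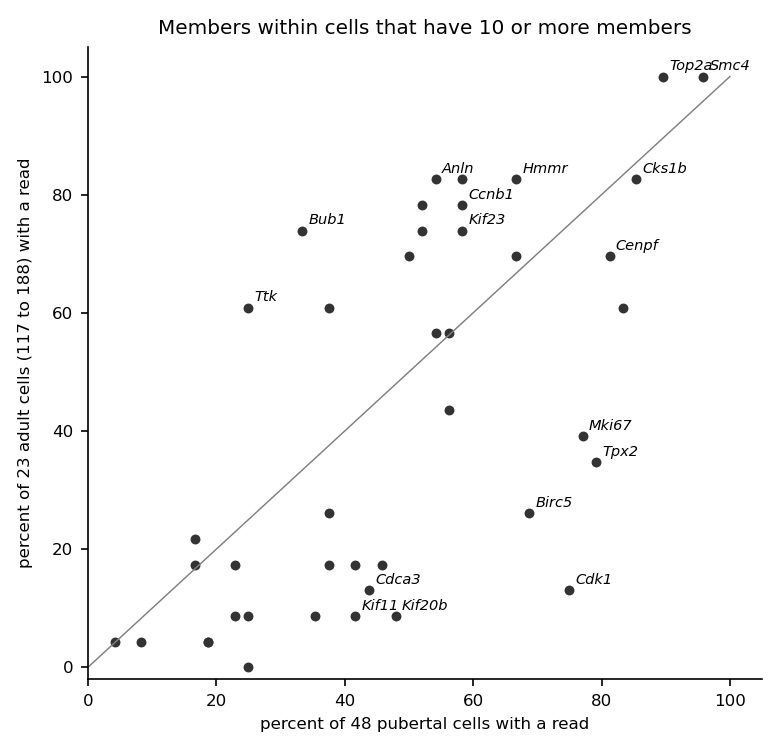
Each point is a member, placed by the percent of the 48 pubertal cells with 10 or more members that had a read of it (horizontal axis) and the percent of the 23 such adult cells numbered 117 to 188 (vertical axis), with a line of equal shares. Cdk1, Tpx2, Mki67 and Birc5 lie far below the line, and Bub1 and Ttk above it.

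By lineage markers, cells with 10 or more members were found in every pubertal class. Cells were classed by whether a larger share of 12 basal or 12 luminal markers was detected, and luminal cells by 9 progenitor against 9 mature markers. At least 10 members were detected in 13 of 48 pubertal cells with more basal markers (27.1%, 15.3 to 41.8), 5 of 21 with more luminal progenitor markers (23.8%, 8.22 to 47.2) and 26 of 89 with more mature luminal markers (29.2%, 20.1 to 39.8). The 3 intervals overlapped widely. In adult cells the counts were 23 of 93 (24.7%), 4 of 17 (23.5%) and 2 of 22 (9.09%, 1.12 to 29.2). The basal order of the stages turned with 15 or more members (12.5% in puberty and 20.4% in adult cells), and the luminal progenitor order in 6 of 15 alternatives. Of the 23 adult cells with more basal markers, 18 were among the cells 117 to 188, where 46 of 55 cells were of this class. Without that run the adult counts were 5 of 47 (10.6%, 3.55 to 23.1), 1 of 14 (7.14%) and 1 of 19 (5.26%, 0.13 to 26.0). The classes also had other shares in the 2 stages, since mature luminal markers led in 89 of 171 pubertal cells (52.0%) and 22 of 152 adult cells (14.5%), so that the stages' overall shares mix class and stage.

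**Figure D4:**
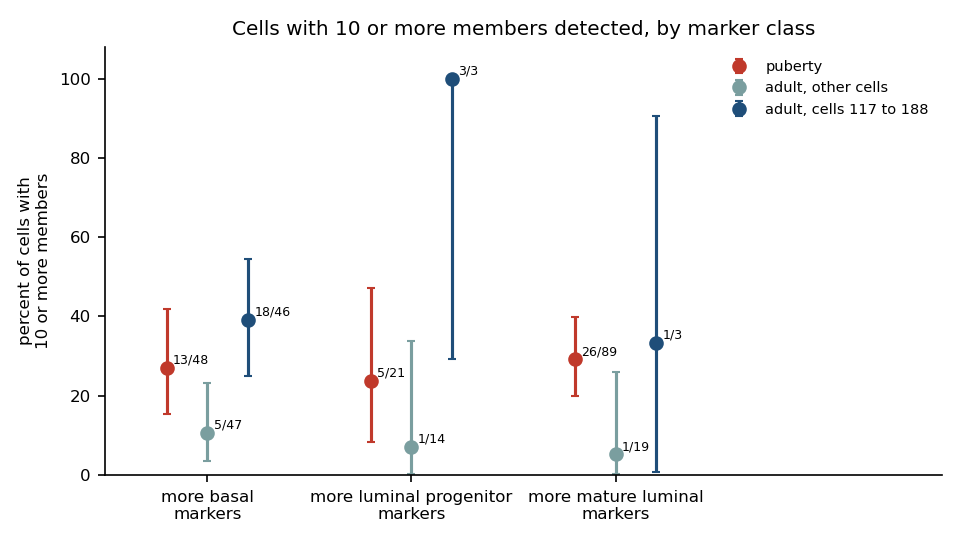
Percent of cells with 10 or more members (vertical axis) by marker class (horizontal axis) in puberty, in adult cells outside 117 to 188 and in adult cells 117 to 188, with exact 95% intervals for counting error and the counts beside each point. In each class the point for the other adult cells lies below that for puberty, with overlapping intervals.

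Few cells had 3 or more markers of another cell type, but lone fibroblast markers were more widespread. All 6 were absent from only 70 adult cells out of 152, and from 105 pubertal ones out of 171. With 10 or more members, 11 adult cells out of 30 lacked all 6, as did 30 pubertal ones out of 48. At least 3 of 6 fibroblast markers were detected in 15 pubertal and 11 adult cells, of which 6 and 0 had 10 or more members, and at least 3 of 5 endothelial markers in 8 and 2, of which 4 and 0 had. The summed endothelial markers ranged from 0 to 2090 CPM and 0 to 130 CPM in the pubertal and adult cells with 10 or more members. The summed fibroblast markers ranged from 0 to 6390 CPM in the pubertal and 0 to 1180 CPM in the adult cells with 10 or more members, with Col1a1, Lum and Pdgfra at 0 in the latter. At least 3 of 7 immune markers were found in 0 pubertal cells and 1 adult cell, and Ptprc, which encodes CD45, was at 0 in all cells with 10 or more members. Without the cells that had 3 or more markers of any of these types, the summed log2 ratio was 1.13, the members per cell 8.36 in puberty and 5.84 in adult cells, and the share of cells with 10 or more members 27.2% and 21.6%. In the basal class the order of the stages turned, at 24.4% in puberty and 27.4% in adult cells.

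Further lists of cell cycle genes were summed in the same way. Among 38 other G2 and mitosis genes that met the minimum, 19 had a log2 ratio of 1 or more and 2 of -1 or less, with a median of 0.99, where all genes had 22.6% and 15.9% and a median of 0.13. Against the other 97 adult cells, 25 were at 1 or more (28.6% of all genes) and the median was 2.03. The 4 most widely detected were Zwint (108 pubertal and 66 adult cells, log2 ratio 0.36), Hmgb2 (77 and 66, 0.57), Pttg1 (72 and 66, 0.30) and Smc2 (79 and 54, 0.80). Spag5, a spindle protein, had 497 reads in 25 pubertal cells and 0 in adult cells, at least 147-fold higher when the adult sum is set to 3 reads, and Sgol1, a protector of sister chromatid cohesion, had a ratio of 4.11. The lowest were Cdca5 (-1.91) and Kif18b (-1.46), each in under 5 cells of either stage.

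Of 36 DNA replication and S-phase genes, 15 were at 1 or more and 2 at -1 or less, with a median of 0.84, and of 14 G1 cyclins and inhibitors 2 and 2, with a median of 0.34, against the same 22.6% and 15.9% of all genes. Against the other 97 adult cells the medians were 1.44 and 0.23, with 22 and 5 genes at 1 or more. Pcna, the sliding clamp of replication, was detected in 96 pubertal and 98 adult cells (log2 ratio 0.14), Slbp in 60 and 80 (-0.50), Dut in 72 and 40 (0.60) and Rrm1 in 43 and 66 (0.04). Exo1 (155 reads and 0, at least 45.9-fold) and E2f1 (3.02) had the largest ratios, and Fen1, a flap endonuclease, was at -1.01. Rrm2, the small subunit of ribonucleotide reductase, was detected in 45 of the 55 adult cells 117 to 188 and in 3 of the other 97, the same run that held most of the adult cells with 10 or more members. At least 10 S-phase genes were detected in 34 of the 48 pubertal cells with 10 or more members (70.8%), 10 of the 23 adult cells 117 to 188 (43.5%) and 1 of the 7 others.

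Among the G1 genes the most widely detected were Btg1 (168 pubertal and 152 adult cells, log2 ratio 0.89), Btg2 (159 and 144, 0.38), Ccnd1, cyclin D1 (137 and 89, 0.71), and Cdkn1a, the CDK inhibitor p21 (99 and 123, -0.79). Cdkn1c (2.14) and Cdkn1b (1.41), which encode the inhibitors p57 and p27, had the largest ratios, and Rbl2 (-2.60) and Cdkn2c (-2.11) the smallest. The G1 genes therefore had no common direction.

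The levels of most pairs of members had a weak positive correlation across cells. Over pairs of members detected in at least 5 cells, the correlation of log2(CPM + 1) across cells had a median of 0.35 in puberty (820 pairs, 171 cells), 0.29 in adult cells (703 pairs, 152 cells) and 0.28 in the 97 adult cells outside 117 to 188 (300 pairs), with 24, 80 and 24 pairs below 0. The same value over pairs of all genes was not computed. The highest pairs were Ccnb1 with Kif23 (0.75), Hmmr with Cenpf (0.73) and Birc5 with Hmmr (0.70) in puberty, and Bub1 with Nusap1 (0.81) in all adult cells. These values describe cells of pooled glands at a common thinning depth, and no label names the sort or capture run of a cell.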

How the data were processed

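Single-cell RNA-seq of the C1-captured cells gave 1 table of read-pair counts per cell. The authors aligned the reads with Subread to mm10 and counted them with featureCounts and the built-in RefSeq annotation. Versions and use of strand are not given in the sources used here, and there are no UMIs. The deposited counts were used as they stand. Mitochondrial (13.9% of reads) and ribosomal genes (2.95%) and 1904 identifiers without a current RefSeq gene (1.84% of reads) were left out, as the study did for these classes, leaving 25137 genes. Cells with at least 100000 read pairs and 1500 genes were kept, and each was thinned without replacement to 100000 pairs (seed 1). Reads of a stage were summed as CPM, and log2 ratios used a prior of 1 CPM, with a minimum of 20 reads and 5 cells over both stages. Shares have Clopper-Pearson 95% intervals, and ratios exact conditional binomial ones. PCR reads are not independent molecules, so these cover counting error only. No label names an animal, so no test was made. The runs of cell numbers were found from genes outside all lists, after the data were seen.

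Full values were given for members with a read in 5% or more of a stage's cells, the 5 with the largest part in depth, and from other lists the 4 most detected and the 2 largest and 2 smallest ratios. A gene that this rule names is not reported here. Rn7sk, Mrvi1, Zfp619 and Rrm2 were chosen after their values were seen. The members and lists were chosen with earlier results of these data known. Python 3.11.15 (numpy 2.4.6, scipy 1.17.1, pandas 2.3.3), R 4.3.3 and edgeR 4.0.16 (for TMM factors in an alternative) were used, and the scripts were tested on simulated data.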

Additional observations from a re-analysis of the deposited data

How the results depend on the processing

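Over 19 alternatives (16 planned, 3 chosen after seeing the data), 194 values were recomputed, of which 167 stayed within their yardstick (1 SD over cells for means, the exact interval for shares and ratios, 1.5-fold for counts) and 27 moved. No summed ratio changed sign, but the order of the stages turned within 2 marker classes. Puberty had more members per cell in 12 of 12 alternatives, the higher mean log2(CPM + 1) in 11 of 11 and the higher share of cells with 10 or more members in 14 of 14. By class it had the higher share in 13 of 15 for basal, 9 of 15 for luminal progenitor and 15 of 15 for mature luminal markers. The 2 basal exceptions were 15 or more members (12.5% and 20.4% in adult cells) and leaving out cells with markers of other types (24.4% and 27.4%). The count of members at a log2 ratio of 1 or more ran from 15, with a prior of 10 CPM, to 33, without the highest cells. In the latter setting 25.2% of all genes were at 1 or more. For the prior of 10 CPM the share of all genes was not computed.

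Without thinning, the pubertal share was 35.7%, that of the basal class 42.0%, and the summed log2 ratio 0.84. Thinning to 200000 read pairs gave a ratio of 1.00, a minimum of 200000 pairs and 2500 genes 1.04, TMM factors 1.01 and leaving out the highest cells 1.51. With 5 reads for detection the shares were 19.3% in puberty and 8.55% in adult cells, and 7.87% in adult basal cells. With 5 or more members in place of 10 they were 47.4% and 34.2%, with 56.2% and 41.9% in the basal class and 43.8% in pubertal mature luminal cells. With 15 or more, they were 17.5% in puberty and 12.5% in its basal class. Only the adult cells 48 to 188 gave a ratio of 1.29, and only the other adult cells 0.82 and a share of 13.3%. Leaving out the adult cells 117 to 188 gave an adult share of 7.22%, a basal share of 10.6% and a ratio of 1.51. Leaving out the pubertal cells 146 to 179 gave 1.23, and leaving out both 1.60, with the adult shares again 7.22% and 10.6%. The cause was not tested for any of these. No paired analysis was possible because the replicate numbers only name cells and no result comes from a test. At 100000 read pairs, the exact upper limit for a gene seen in 0 of 52 cells is 6.85% of cells with a read.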
